A study of Mus musculus with 6 samples.

Results

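The interleukin 1 (IL-1) family ligands and receptors were followed in BV-2 cells, a mouse microglial line immortalised by a retrovirus carrying raf and myc oncogenes. They comprised 10 genes chosen by name: the ligands Il1a, Il1b, Il18 and Il33, the antagonists Il1rn and Il18bp, and the receptors Il1r1, Il1r2, Il1rap and Il1rl1. Of these, 9 had a row annotated with that gene alone and were measured, among 22180 genes with such a row, and Il1rl1 was not analysed here. Where a gene had several rows, the row with the highest mean over all arrays was used. The series had 6 Affymetrix whole-transcript arrays. Of these, 3 came from control cells, labelled as resting, and 3 from cells given lipopolysaccharide (LPS) of Escherichia coli O111:B4, the bacterial ligand of Toll-like receptor 4, at 1 µg/mL for 24 h. A vehicle and a collection time for the controls are not given in the sources used here. All arrays came from 1 cell line without other brain cells, in medium with reduced serum. The labels do not say whether replicates were separate cultures, and the spread that the p-values rest on may therefore be technical.

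IL-1 alpha and IL-1 beta are inflammatory cytokines that bind the same receptor, IL-1R1, which signals with the accessory protein IL-1RAcP (Il1rap) through MyD88 and IRAK kinases to NF-kappaB. The system is restrained by the receptor antagonist (Il1rn), which occupies IL-1R1 without signalling, and by the decoy receptor IL-1R2. IL-1 beta and IL-18 are made as precursors that caspase-1 cleaves in inflammasomes, so their mRNA is only the first step of release. In the brain, microglia are a main source of IL-1 during inflammation.

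Promoter sequence was set beside the expression values because Il1a and Il1b, direct neighbours among protein-coding genes on chromosome 2 in RefSeq, both rose after LPS. Other genes elsewhere had profiles closer to each of them, as given below. Any link between position, promoter sequence and expression was not tested. RefSeq (GRCm38.p6) windows from 250 bases before to 50 bases after the transcription start were held for 10 of the 10 genes, 15 windows in all. They were searched on both strands for a TATA box (TATAAAA), an AP-1 site (TGANTCA), an interferon-stimulated response element (GAAA, any 2 bases, GAAA) and an NF-kappaB site of 10 bases. The 150 bases before the start are shown 5′ to 3′ for the genes of both IL-1 agonists and of their antagonist, with matches in capitals. The windows lie at chr2:129309973-129310122 (minus strand) for Il1a, chr2:129371140-129371289 (minus strand) for Il1b and chr2:24336710-24336859 (plus strand) for the most upstream of the 3 annotated starts of Il1rn.
Il1a: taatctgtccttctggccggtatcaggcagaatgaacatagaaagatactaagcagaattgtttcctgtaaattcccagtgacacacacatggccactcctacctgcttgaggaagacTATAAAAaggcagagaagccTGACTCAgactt
Il1b: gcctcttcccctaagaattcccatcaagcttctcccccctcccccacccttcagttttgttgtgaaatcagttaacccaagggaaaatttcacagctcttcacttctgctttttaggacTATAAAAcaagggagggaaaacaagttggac
Il1rn: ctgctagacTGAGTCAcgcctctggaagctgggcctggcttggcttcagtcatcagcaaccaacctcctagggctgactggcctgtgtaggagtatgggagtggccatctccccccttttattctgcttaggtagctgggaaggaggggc
The TATA box began at position -32 in Il1a and -31 in Il1b, counted from the start site, on the coding strand of both, and no other member window held one. It was found in 5.48% of the 32851 promoter windows in RefSeq. The AP-1 match lay at -12 in Il1a and at -141 in the most upstream window of Il1rn, and 7.81% of all windows held one. The windows at the other annotated starts of Il1rn held no match to any motif. Which start was used in these cells was not tested. The other matches were an NF-kappaB site at -232 in 1 window of Il1r1 (4.51% of all windows) and a response element at 21 in Il1rap (3.44%). Of the 15 windows, 10 held no match. Sequence outside the windows was not searched, so a motif missing here may lie further away. A match is a string of letters, and no binding was measured.

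The arrays were compared first as wholes. Array medians were between 2.88 and 2.97 on the log2 scale. Control replicate 2 lay below the other controls for brighter genes, with median differences of -0.42 at levels of 5 to 7 and -0.61 at 7 to 9. For LPS replicate 3 the same medians against the other LPS arrays were 0.10 and -0.03. Of 10 microglia and macrophage markers, 9 had a mean above 3.09, with Tmem119, a marker of resident microglia, below it. This value is the 95th percentile of 1438 rows for olfactory, vomeronasal and taste receptors, genes not known to act in such cells, and serves here as a guide to background. Means of all 10 astrocyte, oligodendrocyte and lymphocyte markers that had a row lay below the guide, as did 3 of 4 neuronal and 3 of 4 endothelial ones. The exceptions were Rbfox3, with a mean of 3.46, and the growth factor receptor Kdr, with 8.83, and neither passed the test between groups. As a check of treatment, Tnf, Il6 and Cxcl10 rose, and Nos2, the inducible nitric oxide synthase, missed the threshold in limma (3.17 log2 units, SE 0.43, adjusted p = 0.079).

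LPS raised Il1a and Il1b, the genes of both IL-1 agonists, and no other member passed the test, the ligand genes Il18 and Il33 included. Of the 9 genes, 2 were called higher and 0 lower (limma, Benjamini-Hochberg adjusted p under 0.05 over all rows), where 0.193% of all 41345 rows were called higher and 0% lower. At an unadjusted p under 0.05, 3 were higher, where 4.98% of all rows were, and 0 lower, where 1.4% were. The log2 fold changes of the members had a median of 0.15, against 0.03 over all rows. Only Il1a of the 9 was called in the fits that lacked control replicate 1, LPS replicate 1 or LPS replicate 2. More RNA per cell and more cells that express a gene cannot be told apart in RNA from whole cultures.

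**Figure D1:**
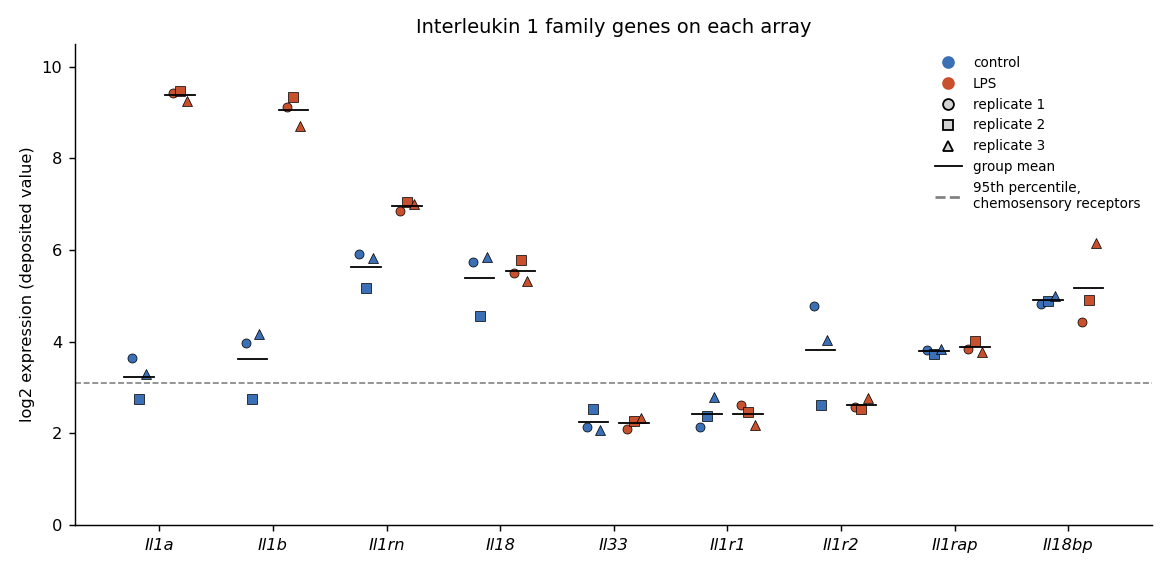
Deposited log2 expression (y axis) of the 9 measured genes on each of the 6 arrays, with control in blue and LPS in orange, replicates by symbol, group means as bars and the background guide (3.09) dashed. Il1a, Il1b and Il1rn have all LPS arrays above all controls, while Il33 and Il1r1 lie below the guide on every array.

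Among the ligands, Il1a (transcript cluster 17391554), coding for IL-1 alpha, which is active as a precursor and can act as an alarm signal of damaged cells, stood at 3.65, 2.75 and 3.29 in control replicates 1 to 3. After LPS its log2 expression was 9.42, 9.47 and 9.25. The groups were 5.60 log2 units apart at their nearest arrays, and the LPS arrays spanned 0.22. The means were 3.23 ± 0.45 and 9.38 ± 0.11 (SD, n = 3), or 70.8-fold higher after LPS. The limma log2 fold change was 6.15 (SE 0.24) with an adjusted p = 0.00098. One control array, replicate 2, lay below the background guide of 3.09 and another, replicate 3, just above it, so the size of the fold rests on a control signal near background. The 95% interval of the log2 fold change ran from 5.58 to 6.72.

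Il1b (17391565), which codes for a secreted cytokine whose precursor caspase-1 cleaves, stood at 3.98, 2.75 and 4.17 in the controls. After LPS it reached 9.13, 9.34 and 8.70. Control replicate 2 and LPS replicate 3 were the low arrays of their groups, and the nearest arrays of the groups were 4.53 log2 units apart. Control replicate 2 was also below the background guide of 3.09, so the size of the Il1b fold rests partly on a signal near background. The means were 3.63 ± 0.77 and 9.06 ± 0.32 (SD, n = 3), and the log2 fold change was 5.43 (SE 0.39, limma adjusted p = 0.0073), or 43.0-fold, with a 95% interval from 4.49 to 6.36. Its limma adjusted p was 0.055 without control replicate 1, and the call was lost likewise when LPS replicate 1 (0.062) or 2 (0.082) was left out, while the log2 fold change stayed between 4.98 and 5.70 over the 6 fits that left out 1 array. Il1bos, a long non-coding RNA that overlaps Il1b in RefSeq, was looked at outside the naming rule. It had means of 2.20 ± 0.19 and 2.53 ± 0.18 (SD, n = 3), below the background guide on all 6 arrays (limma adjusted p = 0.88).

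Il18 (17517105) codes for the other caspase-1 substrate of the family, which drives interferon-gamma production by lymphocytes. Its log2 expression was 5.74, 4.57 and 5.86 in the controls and 5.49, 5.79 and 5.33 after LPS. Control replicate 2 was low, and all LPS arrays lay between it and control replicate 3. The log2 fold change was 0.15 (SE 0.35, 95% interval -0.70 to 0.99, limma adjusted p = 1.0). It was -0.26 without control replicate 2, so no direction can be given. The interval leaves out a rise of Il18 as large as that of Il1a or Il1b.

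Il33 (17358598) codes for a nuclear alarm cytokine made mainly by barrier and stromal cells and, in the brain, by astrocytes and oligodendrocytes. It lay between 2.08 and 2.52 in the controls and between 2.09 and 2.33 after LPS. All 6 values were below the background guide, so no expression could be told from background in either group. The log2 fold change was -0.01 (SE 0.17, 95% interval -0.42 to 0.39, limma adjusted p = 1.0).

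Of the antagonists, Il1rn (17367686) stood at 5.92, 5.18 and 5.82 in the controls and at 6.85, 7.05 and 7.0 after LPS. Every LPS array exceeded every control array, with the nearest arrays of the groups 0.94 log2 units apart. Such a separation, by any margin, held for 7.74% of all rows. The means were 5.64 ± 0.40 and 6.96 ± 0.10 (SD, n = 3). This made Il1rn 2.51-fold higher, or 1.33 log2 units (SE 0.22, 95% interval 0.80 to 1.85). It did not pass over all rows (limma adjusted p = 0.14), and over 15 alternative analyses the adjusted p ran from 0.053 to 0.59 and the log2 fold change from 1.08 to 1.47.

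The agonist Il1b and the antagonist Il1rn were also compared within arrays. The log2 value of Il1b less that of Il1rn was -1.94, -2.43 and -1.65 in the controls and 2.28, 2.29 and 1.71 after LPS. Only the change in this difference is read, since signals of different probes are not on a common scale. It changed by 4.10 log2 units, with no overlap between the groups (exact two-sided permutation test, p = 0.1, the smallest that 3 against 3 arrays can give). Il1b lay below the background guide in control replicate 2, and without that array the change was 3.89. The pair was chosen with earlier results of these data known.

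Il18bp (17493995) codes for a secreted protein that binds and neutralises IL-18. Its controls were close together at 4.82, 4.89 and 5.00, and the LPS arrays stood at 4.43, 4.91 and 6.15. LPS replicate 3 was 1.48 above the mean of the other LPS arrays, of which 1 was below all controls. The log2 fold change was 0.26 (SE 0.41, 95% interval -0.73 to 1.25, limma adjusted p = 1.0), and it was -0.23 without LPS replicate 3, so its sign rests on that array.

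Among the receptors, Il1r1 (17212185), the signalling receptor of IL-1, was below the background guide on all 6 arrays. It lay between 2.13 and 2.79 in the controls and between 2.18 and 2.62 after LPS, with a log2 fold change of -0.01 (SE 0.22, 95% interval -0.52 to 0.50, limma adjusted p = 1.0). No expression of this receptor gene could be told from background in control or LPS arrays.

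Il1r2 (17212174), the decoy receptor, whose gene is the direct neighbour of Il1r1 among protein-coding genes on chromosome 1, stood at 4.77, 2.62 and 4.03 in the controls. After LPS it was 2.57, 2.52 and 2.76. Control replicates 1 and 3 were above the background guide, and control replicate 2 and all LPS arrays were below it. The means were 3.81 ± 1.09 and 2.62 ± 0.13 (SD, n = 3). Its log2 fold change was -1.19 (SE 0.50, 95% interval -2.39 to 0.01, limma adjusted p = 0.79). The groups overlapped only through control replicate 2, without which the log2 fold change was -1.79 (limma adjusted p = 0.089). Without control replicate 1 it was -0.71 (adjusted p = 1.0). With control replicate 2 and LPS replicate 3 both absent it was -1.86 (adjusted p = 0.072), the lowest adjusted p of its 15 alternatives, which reached 1.0. The log2 value of Il1r1 less that of Il1r2 changed by 1.18 (exact two-sided permutation test, p = 0.2), with Il1r1 itself within the background range. Leaving out control replicate 1 made this change 0.55, leaving out control replicate 2 made it 1.74, and it was 1.93 when LPS replicate 3 was dropped together with control replicate 2.

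Il1rap (17324522), the accessory protein that both IL-1R1 and the IL-33 receptor need, stood at 3.82, 3.74 and 3.84 in the controls and 3.85, 4.01 and 3.77 after LPS. All 6 arrays lay between 3.74 and 4.01, and the groups overlapped. The log2 fold change was 0.08 (SE 0.13, limma adjusted p = 1.0). Its 95% interval, from -0.24 to 0.40, leaves out a doubling of the signal in either direction. The signal was not far above the background guide of 3.09, where a change of the RNA may be understated. Of its 3 rows, the other two lay below the background guide on all arrays, with log2 fold changes of 0.01 and -0.00.

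**Figure D2:**
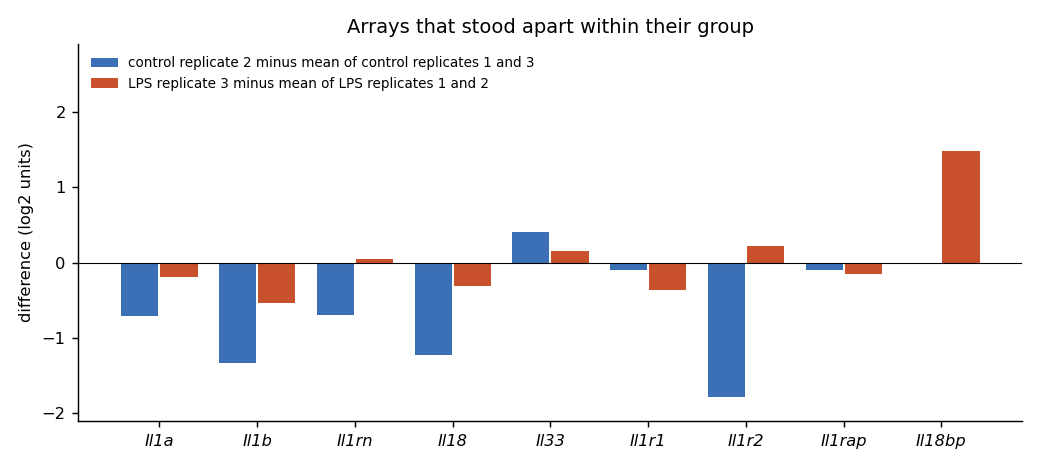
Log2 difference (y axis) of control replicate 2 from the mean of the other controls (blue) and of LPS replicate 3 from the mean of the other LPS arrays (orange) for the 9 genes. Control replicate 2 was lowest relative to its group for Il1r2 (-1.78), Il1b (-1.33) and Il18 (-1.23), and LPS replicate 3 was highest for Il18bp (1.48).

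Control replicate 2 stood apart for several members. It lay below the other controls for Il1a (-0.71), Il1b (-1.33), Il1rn (-0.69), Il18 (-1.23) and Il1r2 (-1.78). At levels of 3 to 5, where Il1a, Il1b and Il1r2 lay in the other controls, its median difference over all genes was -0.20. For Il1rn and Il18, at levels of 5 to 7, that median was -0.42. The part of this array in the differences between groups was measured by leaving it out. Without control replicate 2, the log2 fold change was 5.91 for Il1a and 1.10 for Il1rn, and Il1a and Il1b were called as with all arrays.

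The genes whose profiles were most like those of Il1a, Il1b and Il1rn were found by the root mean square difference between profiles centred on their mean over the 6 arrays. For Il1a they were the itaconate synthesis gene Acod1 (0.29 log2 units), the iron-siderophore-binding Lcn2 (0.32), the acute phase gene Saa3 (0.36), Il1b (0.46) and the antiviral gene Rsad2 (0.60). For Il1b they were Saa3 (0.34), the neutrophil attractant Cxcl2 (0.40), Il6 (0.41), Il1a (0.46) and the chemokine-binding receptor Ccrl2 (0.56). For Il1rn, which did not pass the test, they were the macrophage marker Adgre1 (0.11), Pilra (0.12), the chemokine Ccl4 (0.12), Rapgef2 (0.12) and Irak2 (0.13). With 6 arrays in 2 groups, a gene comes close by this measure when its difference between the groups is of like size.

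Of 11 other IL-1 family genes, 0 passed in limma, where 0.193% of all rows were called higher and 0% lower. At an unadjusted p under 0.05, 0 were higher and 0 lower, where 4.98% and 1.4% of all rows were. In a list this small, counts of 0 lie near these shares. The median log2 fold change of the 11 genes was -0.09, and 2 had a mean above the background guide. These 2, Il18rap, a subunit of the IL-18 receptor, and the ligand gene Il36a, had log2 fold changes of -0.11 (SE 0.18) and 0.04 (SE 0.12). The ligand gene Il36g is named because of its values. It stood at 2.11, 2.35 and 2.30 in the controls and 2.63, 3.04 and 5.07 after LPS, so that only LPS replicate 3 exceeded the background guide (log2 fold change 1.33, SE 0.59, limma adjusted p = 0.83). Without that array the log2 fold change was 0.58. The IL-18 receptor subunit gene Il18r1 and the IL-36 receptor gene Il1rl2, named likewise with values known, lay below the guide on all arrays.

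Of 15 genes for the processing and release of IL-1, 0 passed in limma, where 0.193% of all rows were called higher and 0% lower. In a list this small, a count of 0 lies near these shares. At an unadjusted p under 0.05, 4 were higher and 0 lower, where 4.98% and 1.4% of all rows were. LPS arrays were wholly above the controls for 5 of the 15 genes and wholly below for 2, where 7.74% and 3.48% of all rows were. The initiator caspase Casp8 and the NLRP3-binding kinase Nek7, the members with the highest means, had log2 fold changes of 0.08 (SE 0.32) and 0.19 (SE 0.29). Casp4, Nlrp3 and Casp1 were singled out after their values were seen. The sensor of intracellular LPS, Casp4, stood at 6.03, 5.38 and 5.94 in the controls and 7.51, 7.85 and 8.28 after LPS, a log2 fold change of 2.10 (SE 0.26) that just missed the threshold (limma adjusted p = 0.056). It passed in 6 alternative analyses, with quantile normalization among them (adjusted p = 0.023), and the adjusted p ran up to 0.31 without LPS replicate 2. The inflammasome sensor Nlrp3 stood at 4.89, 4.94 and 4.25 and then at 6.04, 6.16 and 6.33 (log2 fold change 1.48, SE 0.22, limma adjusted p = 0.1). For Casp1, a protease that matures IL-1 beta, control values of 7.79, 6.83 and 7.73 were followed by 8.18, 8.43 and 8.76 after LPS (log2 fold change 1.01, SE 0.30, limma adjusted p = 0.51). The inflammasome adaptor Pycard and the pore-forming Gsdmd, named for their roles and with values known, had log2 fold changes of -0.19 (SE 0.14) and 0.19 (SE 0.39).

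**Figure D3:**
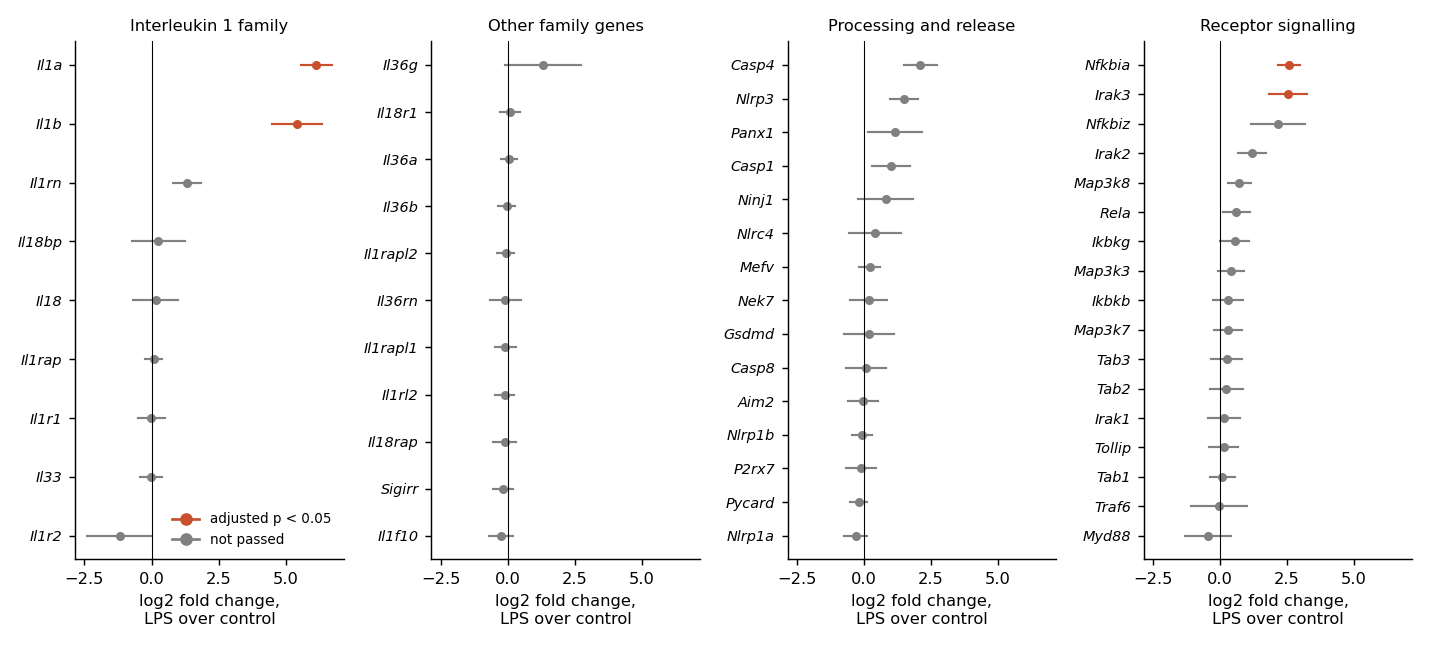
Log2 fold change, LPS over control (x axis), with 95% limma intervals for the measured genes of the 4 lists, in orange where adjusted p was under 0.05. Il1a (6.15), Il1b (5.43), Nfkbia (2.57) and Irak3 (2.52) are the 4 that passed.

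Of 17 measured genes of IL-1 receptor signalling, which Toll-like receptors share, 2 rose, 0 fell and 15 did not pass, where 0.193% of all rows were called higher and 0% lower. At an unadjusted p under 0.05, 7 were higher and 0 lower, where 4.98% and 1.4% of all rows were, and the median log2 fold change was 0.30. Both that passed restrain the pathway. Nfkbia, the inhibitor that holds NF-kappaB in the cytoplasm, stood at 5.76, 6.02 and 6.18 in the controls and 8.47, 8.77 and 8.42 after LPS (log2 fold change 2.57, SE 0.17, limma adjusted p = 0.0054). Each fit without 1 array kept this call, but the limma adjusted p reached 0.048 without LPS replicate 1 and a rounded 0.05 without control replicate 1. With same-numbered arrays treated as blocks, the call of Nfkbia was lost (limma adjusted p = 0.14). Irak3, a kinase-family member that blocks signalling from the receptor complex, stood at 4.68, 4.16 and 4.92 and then at 7.12, 7.58 and 6.63 (log2 fold change 2.52, SE 0.30, limma adjusted p = 0.044). The call of Irak3 was lost after quantile normalization (adjusted p = 0.064) and without any 1 array other than LPS replicate 3 (0.075 to 0.25). With control replicate 2 and LPS replicate 3 both absent, 3 were called, the third being Nfkbiz, a nuclear IkappaB protein that modulates NF-kappaB targets. It is named for this call (log2 fold change 2.18, SE 0.42, limma adjusted p = 0.23 with all arrays and 0.015 in that fit, the lowest of its alternatives, which reached 0.76). The adaptor Myd88 and the ubiquitin ligase Traf6, named after their values were seen, had log2 fold changes of -0.45 (SE 0.36) and -0.05 (SE 0.44). The other 15 of the 17 had log2 fold changes above 0. Besides Nfkbiz, those higher at an unadjusted limma p under 0.05 but not called were Irak2 (1.19, SE 0.22), Map3k8 (0.71, SE 0.18), Rela (0.61, SE 0.22) and Ikbkg (0.55, SE 0.23). They too were named with values known.

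**Figure D4:**
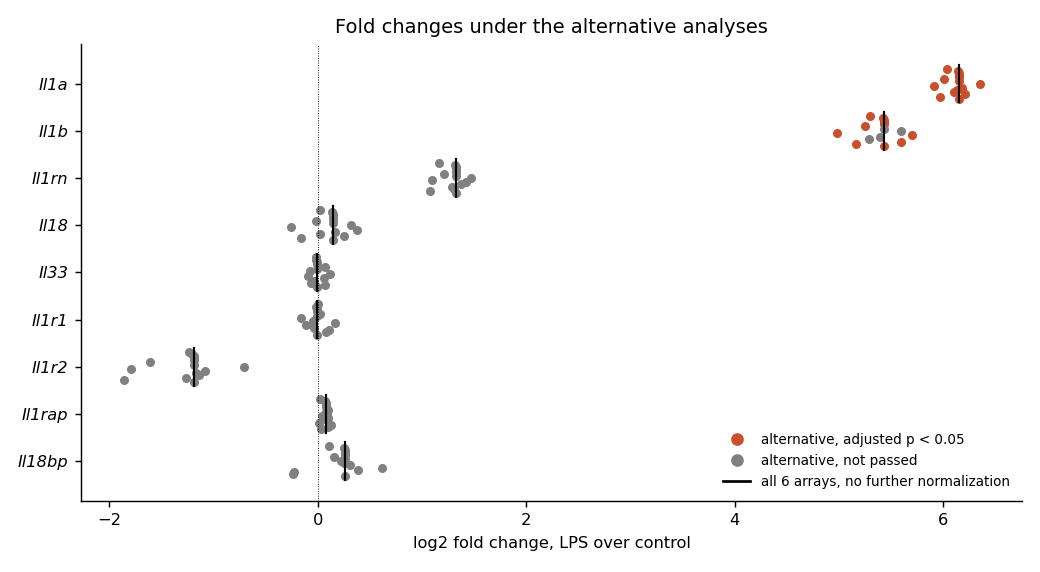
Log2 fold change, LPS over control (x axis), of the 9 genes under each alternative analysis (points, orange where adjusted p was under 0.05) and with all 6 arrays as deposited (black bars). Il1a passed in 15 of 15 alternatives and Il1b in 11 of 15, while Il18, Il33, Il1r1 and Il18bp have points on both sides of 0.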

How the data were processed

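The authors deposited log2 expression values per transcript cluster (a group of probes for 1 transcription unit), for which the submitters' processing notes name Affymetrix Expression Console. Its version, background correction and normalization are not given in the sources used here. If the background was not removed, fold changes from low signals are understated. The table held 41345 rows: 23521 with 1 gene symbol, 1814 with several and 16010 with none. Genes were named only from rows with 1 symbol, by Entrez identifier or RefSeq synonym. No coordinates are given for rows, since no array build was named.

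LPS was compared with control in limma 3.58.1 (R 4.3.3; lmFit and eBayes, no trend, filter or further normalization), with Benjamini-Hochberg adjustment over all rows, and the fit was tested on simulated data. Pair differences used exact permutation over arrays. The number of arrays limits precision. Members, lists and pairs were chosen with earlier results of these data known. All members were named. From other lists, up to 4 called genes were named or, with none called, the 2 brightest, and the 5 nearest profiles of Il1a, Il1b and Il1rn. Genes named outside this rule, with values known, are marked so in the text. Of the signalling list, Irak4, Chuk and Nfkb1 had no row of their own and were not analysed here.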

Additional observations from a re-analysis of the deposited data

How the results depend on the processing

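The count of members called higher was 2 with quantile normalization, median centring, no dim rows, rows with 1 symbol only, an intensity trend, array weights, the mean of a gene's rows, and without the pair of control replicate 2 and LPS replicate 3. With 1 array left out it ran from 1 to 2. No member was called lower in any of these. The labels do not say whether same-numbered arrays belong together. Deviations of same-numbered arrays from their group means correlated at 0.0372, -0.334 and -0.191, and LPS replicates 2 and 3 correlated best with another number. With 3 arrays per group, and shifts of whole arrays such as control replicate 2, these values cannot settle whether the arrays were paired. With the replicate block, 1 member was called (Il1a; Il1b had limma adjusted p = 0.14) and 0 signalling genes. For processing genes, 0 called became 1 (Casp4) with quantile normalization, median centring, no dim rows, array weights or without that pair, and 2 (with Nlrp3) over rows with 1 symbol only, where fewer rows are tested. For signalling genes, 2 called became 1 after quantile normalization, ran from 1 to 2 with 1 array left out, and became 3 (with Nfkbiz) without the pair of arrays. The causes of these moves were not tested, apart from fewer rows. The signs for Il18, Il33, Il1r1 and Il18bp changed between alternatives, and none of these passed. The within-array differences were recomputed after quantile normalization, after median centring, without each array and without that pair, and kept their direction in these 9. With 1 array left out, 2 arrays stand for a group, which limits what these fits can call.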
